A study of Mus musculus with 3 samples.

Results

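The intermediate *Mpo* cells are the CD133+ bone marrow cells in which *Mpo*, the gene for myeloperoxidase, lay between the level of early neutrophil precursors and the level of the large remaining population. They were chosen as cells with at least 10 and fewer than 40 *Mpo* UMIs per 10000 UMIs of the cell, where a UMI (unique molecular identifier) stands for 1 captured mRNA molecule. A cell also needed at least 200 genes, at most 20% mitochondrial UMIs, a UMI total within the 5th to 95th percentile of its own library, and fewer than 10 UMIs of 9 genes of monocytes, B cells, basophils and other blood cells together (*Ms4a6c*, *Csf1r*, *F13a1*, *Cd79a*, *Vpreb3*, *Prss34*, *Mcpt8*, *Gzma* and *Cd74*). In all, 2968 of 29828 cells met the rule, or 2968 of the 26838 cells that passed the filters on genes, mitochondrial share and UMI total. They are set beside 3837 high *Mpo* cells (at least 40 per 10000) and 19288 low *Mpo* cells (under 10 per 10000), which passed the same filters.

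The study sorted CD133+ cells from the bone marrow of C57BL/6 mice, pooled the cells of 3 mice in each library and made 3 droplet libraries, labelled control, young and old. The labels give an age of 3 months for control and for young, and of 27 months for old, while the text of the series gives 18.5 months for the old mice. No treatment or allele is named for any library. The study's text describes a first sort from C57BL/6N mice, whose cell number is that of the control library, and apart from it a comparison of young and old mice, so that, as far as this number tells, the control and young libraries come from different experiments; the labels themselves name no difference between these libraries. The text of the series calls the cells intestinal, whereas the labels of all 3 libraries give bone marrow. With 1 library for each condition there is no replicate, no test was made and no p-value is given. The exact 95% intervals below cover counting error only, and the spread between mice was not measured.

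A neutrophil makes its granules in order. Early precursors fill azurophil granules with myeloperoxidase and with the serine proteases neutrophil elastase (*Elane*), proteinase 3 (*Prtn3*) and cathepsin G (*Ctsg*). Later precursors stop making these and turn to the proteins of specific granules, such as cathelicidin (*Camp*), neutrophilic granule protein (*Ngp*), lipocalin 2 (*Lcn2*) and lactoferrin (*Ltf*), and after the last division to those of gelatinase granules, such as the gelatinase gene *Mmp9*. *Ccne2* encodes cyclin E2, which acts with CDK2 where a cell enters the S phase.

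The control library held 1135 intermediate *Mpo* cells, the young library 607 and the old library 1226. They made up 11.6% of the kept cells in control (interval 10.98 to 12.3%), 8.07% in young (7.46 to 8.71%) and 12.9% in old (12.2 to 13.5%). The young share lay below those of the other libraries by more than counting error, and the control and old intervals overlapped slightly. For each high *Mpo* cell there were 0.772 intermediate cells in control, 0.467 in young and 1.15 in old, so that the order of the libraries was the same against the high *Mpo* cells. The high *Mpo* cells also differed among themselves. Of the kept cells with fewer than 10 UMIs of the 9 genes, 11.4% in young, 6.20% in control and 2.84% in old had between 80 and 160 *Mpo* UMIs per 10000.

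**Figure D1:**
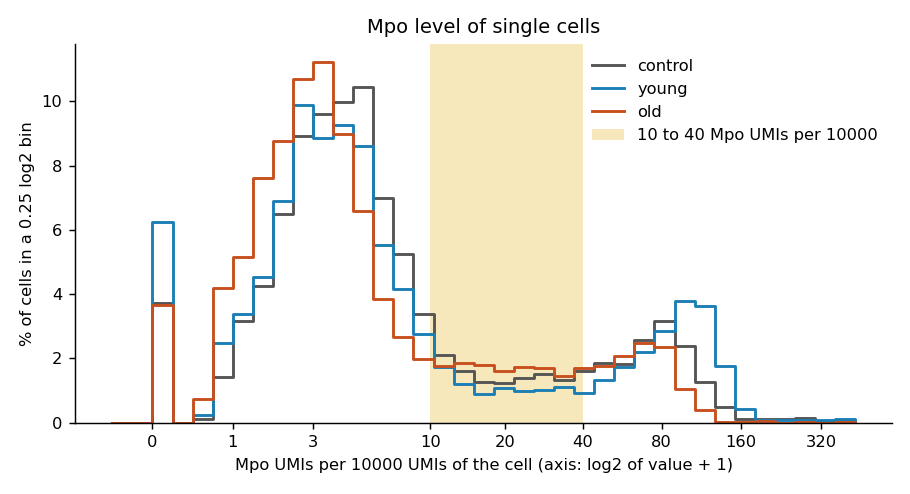
Share of cells (%, vertical axis) in steps of 0.25 log2 units of the *Mpo* UMIs per 10000 UMIs of the cell (horizontal axis, log2 of the value + 1) for the 3 libraries; the shaded range is that of the intermediate cells. In every library the shaded range lies in the valley between a large group of cells under 10 and a smaller group above 40.

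In this distribution the intermediate range was a valley and not a peak. Between 10 and 20 *Mpo* UMIs per 10000 lay 6.28% of the control, 4.82% of the young and 6.59% of the old cells, and between 20 and 40 lay 5.404%, 3.96% and 6.36%. *Elane* differed by less than 1.5 times across either limit. At the lower limit, the 126 control cells with 10 to 11 *Mpo* UMIs per 10000 had 5989 UMIs of *Elane* per 1000000 UMIs (CPM), and the 164 control cells with 9 to 10 had 4688 CPM. At the upper limit, the 87 control cells with 36 to 40 had 17153 CPM of *Elane* and the 86 cells with 40 to 44 had 17715 CPM. The same steps were 5095 against 4581 CPM and 16081 against 16621 CPM in young, and 5628 against 5703 CPM and 14654 against 15438 CPM in old.

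A single cell of the intermediate group had a median of 20 *Mpo* UMIs in control, 22 in young and 29 in old, at a median total of 11512, 11976 and 15143 UMIs. For 31.5% of the control, 34.8% of the young and 45.4% of the old cells, the exact 95% interval of the cell's own *Mpo* count lay inside both limits. The interval reached below the lower limit in 44.8%, 43.5% and 34.5% of the cells. The old library was the deepest of the 3, with 138030352 UMIs in 10597 cells against 108985799 in 10869 control cells and 81434722 in 8362 young cells. The intermediate cells together gave 12409543, 6755608 and 18327006 UMIs in control, young and old, so that 3 UMIs of a gene stood for 0.242, 0.444 and 0.164 CPM.

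The markers named for these cells were all present. *Elane* stood at 11717 CPM in control, 11019 in young and 9793 in old intermediate cells, which was 50.6%, 43.6% and 53.4% of its level in high *Mpo* cells. *Ccne2* stood at 99.6, 105.5 and 110.0 CPM. *Prom1*, which encodes CD133, the protein the cells were sorted for, stood at 67.1, 60.2 and 65.7 CPM, against 74.5, 69.6 and 70.3 CPM in high and 44.1, 35.9 and 38.4 CPM in low *Mpo* cells. After every cell was thinned to 3000 UMIs, 17.9% of the control, 15.8% of the young and 17.5% of the old intermediate cells had a *Prom1* UMI (47.8%, 44.8% and 60.3% before thinning). In the cells set aside by the 9 genes, which passed the same sort, the thinned shares were 4.62%, 2.13% and 7.14%, at medians of 7023, 6742.5 and 9399 UMIs, so the intermediate cells lay above them in each library.

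Defining genes of endothelium were at or near 0. *Tek*, *Emcn* and *Sox17* had no UMI in the intermediate cells of any library, nor had *Cdh5* (VE-cadherin) and *Kdr* (a VEGF receptor). Of the 15 endothelial genes listed, 6 had no UMI in control, 7 in young and 7 in old, and the list summed to 23.9, 26.1 and 29.4 CPM, led by *Erg* with 11.8, 12.3 and 14.0 CPM. The stem and progenitor list summed to 28.4, 49.1 and 15.4 CPM over 13 genes, led by *Cd27*, while *Kit* stood at 7.494, 12.3 and 2.46 CPM.

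Because the groups were made from *Mpo* counts in the same cells, the following values describe how other genes lie along *Mpo* and are no test of a difference. Genes were counted where the ratio of summed UMIs passed 1.5 times in the same direction in all 3 libraries. A gene that reached the minimum of 10 CPM through the higher group alone could not be counted the other way. Against high *Mpo* cells, 161 genes (2.87% of 5606) were higher and 825 (14.7%) lower in the intermediate cells. Against low *Mpo* cells, 856 genes (16.8% of 5087) were higher and 98 (1.93%) lower. The direction of these splits depends on the scale. The S100A genes took 84315, 89976 and 81239 CPM in high, 180242, 199266 and 161321 CPM in intermediate and 269675, 276921 and 268458 CPM in low *Mpo* cells of control, young and old, and the median gene lay at log2 ratios of -0.25, -0.29 and -0.22 against high and of 0.30, 0.29 and 0.38 against low cells. After centring on these medians the counts were 386 higher and 380 lower against high cells, and 261 higher and 259 lower against low cells.

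Azurophil granule genes stood between the other groups, but not all at the same distance. Of 13 such genes tested, 10 were lower than in high cells, 0 higher, and 11 were higher than in low cells; their median log2 ratio to high cells was -1.11, -1.20 and -1.01 in control, young and old. *Ctsg* lay furthest below high cells of the list: it measured 718 CPM against 4359 CPM in high cells of control, 528 against 4206 CPM in young and 1331 against 6695 CPM in old. The log2 ratios of *Ctsg*, -2.60, -3.00 and -2.33, were larger in size than those of *Mpo* itself, at -1.90, -2.15 and -1.68, and than those of *Elane*, at -0.98, -1.20 and -0.90. *Prtn3* (4073, 3072 and 4052 CPM) and *Prss57* (217, 221 and 250 CPM), a serine protease of the same granules, lay with *Elane*, at log2 ratios of -1.11, -1.36 and -1.01 and of -1.02, -1.005 and -0.88.

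Among these genes, *Srgn*, the gene for serglycin, the proteoglycan that packs granule proteins, lay at 610, 649 and 937 CPM, with log2 ratios to high cells of -1.61, -1.69 and -1.39. The protease inhibitor gene *Serpinb1a* went against the rest. Its 2098, 2066 and 3145 CPM were above high cells, with 1766, 1949.6 and 2470.4 CPM, and above low cells, with 1773, 1431 and 2345 CPM, in each library. Against low cells, *Elane*, *Mpo* and *Srgn* were the 3 leading genes by the smallest ratio among the libraries, at log2 values of 2.62, 2.92 and 2.92 for *Elane*. Low *Mpo* cells are not a true zero for this gene: 112 young cells with at least 10 UMIs of the B cell genes *Cd79a* and *Vpreb3* carried 1580.0 CPM of *Elane* and 453 CPM of *Mpo*, and the young low *Mpo* cells 1458 and 354 CPM.

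Specific granule genes were already well above high *Mpo* cells. Of 17 tested, 14 were higher than in high cells and 0 lower, and against low cells 1 was higher and 6 lower. *Camp* measured 45110 CPM in control, 55657 in young and 30117 in old intermediate cells, against 14925, 18194 and 10800 CPM in high and 64618, 70156 and 43326 CPM in low cells. *Ngp* measured 36439, 36821 and 35721 CPM and *Lcn2* 3964, 3085 and 5281 CPM, so that *Ngp* differed least among the libraries and *Lcn2* was highest in old. *Camp* in cells with B cell genes stood at 13435 CPM over 13 control cells, 12794 CPM over 112 young cells and 28971 CPM over just 3 old ones. Over all cells set aside by the 9 genes *Camp* stood at 16436 CPM over 65 cells of control, 11486 CPM over 610 of young and 13457 CPM over 70 of old. The intermediate cells lay above these values in each library, while in old they were near the value that rests on 3 cells.

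The specific granule genes did not stand at the same distance from low cells. *Camp* in intermediate cells stood at log2 ratios to low cells of -0.52, -0.33 and -0.52, and *Ngp* at -0.98, -0.90 and -0.85. *Ltf* measured 1644, 1638 and 1552 CPM against 6945, 7561 and 7851 CPM in low cells, at log2 ratios of -2.08, -2.21 and -2.34, and was among the 8 lowest genes of that comparison. With it stood *Plbd1*, *St3gal5*, *AA467197*, the surface gene *Ly6g*, the formyl peptide receptor gene *Fpr2*, the galectin gene *Lgals3* and the transcription factor gene *Klf2*. *Ly6g* measured 49.6, 83.5 and 32.1 CPM against 175, 320 and 155 CPM in low cells. *Ifitm6*, an interferon-induced transmembrane protein gene, led the genes above high cells, at 716, 321 and 1927 CPM against 190, 70.4 and 537 CPM. It was followed by *Ngp*, the lysozyme gene *Lyz2*, *Camp*, *Plp2*, *Lcn2*, *Degs1* and *Chil1*.

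**Figure D2:**
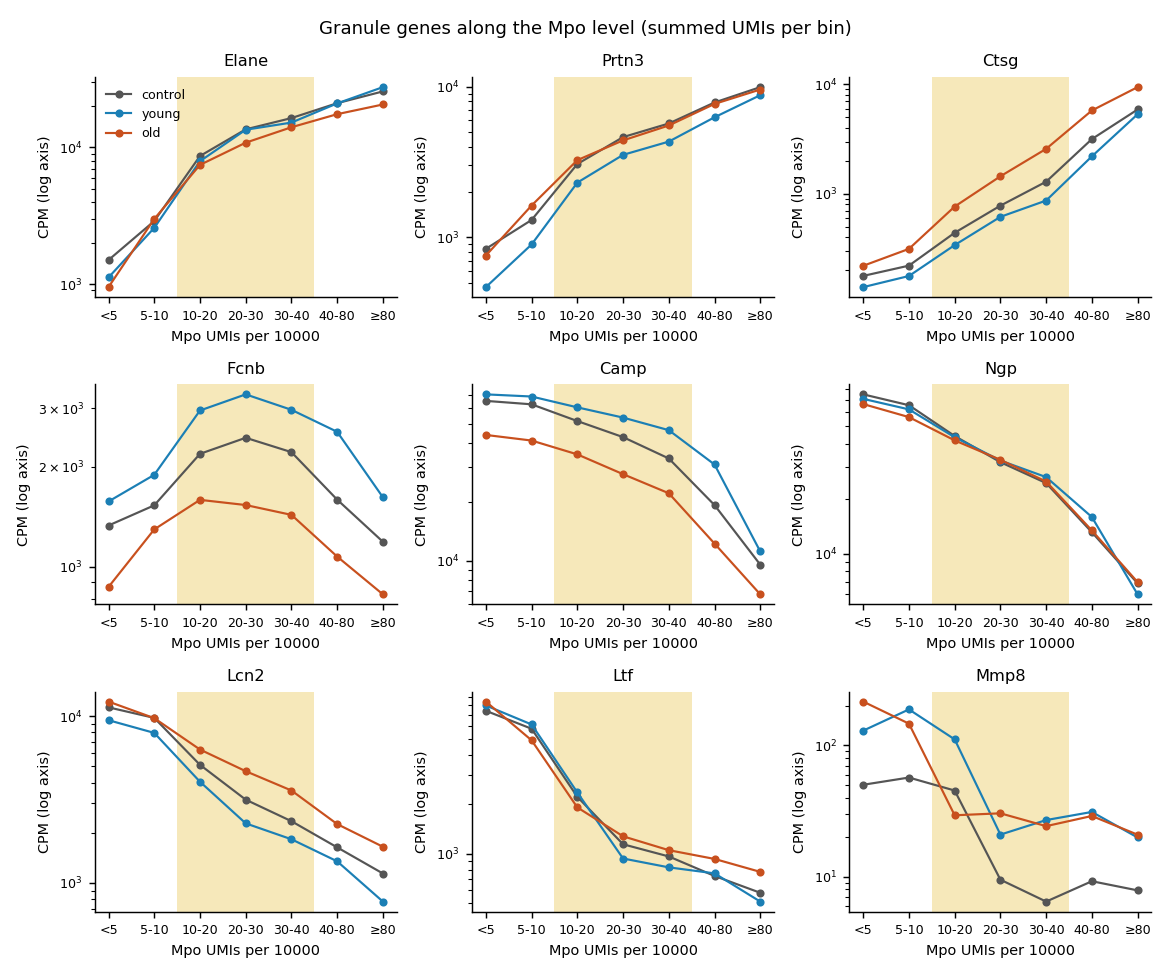
Level (CPM, log axis) of 9 granule genes in cells grouped by *Mpo* UMIs per 10000 (horizontal axis, 7 groups, the shaded 3 being the intermediate cells), 1 point for the summed UMIs of each group in each library. *Elane*, *Prtn3* and *Ctsg* climb with *Mpo*, *Camp* and *Ngp* run the other way, *Ltf* stays low until *Mpo* is under 20, and *Fcnb* is highest inside the shaded range in every library.

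Gelatinase granule and maturation genes lay mostly below low cells; the list also holds *Mmp8*, the gene of a collagenase stored in specific granules. Of 13 tested against high cells 5 were higher and 0 lower, and of 14 tested against low cells 0 were higher and 8 lower. *Mmp8* measured 26.8 CPM in control, 68.1 in young and 28.6 in old intermediate cells, against 52.1, 143 and 204 CPM in low cells. Old intermediate cells stood near the 26.9 CPM of old high cells, whereas control and young lay above their high cells, with 8.64 and 23.9 CPM. In cells of at least 8000 UMIs *Mmp8* measured 10.2 against 7.11 CPM in control, 26.6 against 22.4 CPM in young and 25.6 against 25.01 CPM in old, intermediate against high cells, so that the groups lay closer together in control and young.

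Among granule genes of at least 50 CPM, 1 lay above both other groups by at least 1.2 times. *Fcnb*, which encodes ficolin B, a lectin of neutrophil precursors that recognizes microbial sugars, measured 2269 CPM in control, 3058 in young and 1543 in old intermediate cells. High *Mpo* cells had 1416, 1952 and 1011 CPM and low *Mpo* cells 1390, 1648 and 942 CPM. The level in intermediate cells was 1.603, 1.57 and 1.53 times that of the higher of the 2 other groups, the largest such ratio among genes of at least 50 CPM. By *Mpo* level it was highest at 20 to 30 *Mpo* UMIs per 10000 in control (2447 CPM) and young (3305 CPM) and at 10 to 20 in old (1592 CPM). *Fcnb* kept its place above both groups by at least 1.2 times under all of the alternatives tried.

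Few other genes had their height between the groups. Past 1.2 times in all 3 libraries there were 6 genes, 0.121% of 4973 tested: *Fcnb*, *Ccne1*, *Chit1*, *Csrp1*, *Hist1h1b* and *Hist1h3b*. In control and old *Hist1h3b* reached 10 CPM in the intermediate cells alone, and with a minimum of 20 CPM the other 5 genes remained. Higher by any size in all 3 libraries were 257 genes (5.17%). With ratios centred on their median, *Fcnb* alone of the 6 passed, together with *Ccne2*, *Ikbke*, *Ldhb* and *Tk1*. *Ccne2* passed as well with limits of 15 to 30 *Mpo* UMIs per 10000, at 1.22 times or more in each library, against 1.12 times or more as reported. *Ccne1*, the gene for cyclin E1, measured 25.4, 27.8 and 39.9 CPM against 15.4, 15.7 and 28.3 CPM in high and 18.2, 19.1 and 19.0 CPM in low cells. *Chit1* encodes a chitinase, and *Hist1h1b* and *Hist1h3b* encode a linker histone and an H3 histone made in S phase. These histone genes belong to families of close copies, so their reads may be shared with other copies. The 8 genes of at least 50 CPM with the highest ratio were *Fcnb*, *Csrp1*, *Hist1h1b*, *Grn*, *Rrm2*, *Tagln2*, *Hvcn1* and *Sipa1*. Of these, *Hist1h1b*, *Grn*, *Tagln2*, *Hvcn1* and *Sipa1* no longer exceeded both groups in all libraries once ratios were centred on their median.

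Of 44 genes of the G1/S and DNA replication list, 0 were higher and 2 lower than in high cells, with median log2 ratios of -0.23, -0.19 and -0.07 in control, young and old. *Ccne2* lay above both other groups in each library: high *Mpo* cells had 88.7, 81.0 and 87.4 CPM and low *Mpo* cells 58.7, 59.9 and 44.2 CPM. Its log2 ratios to high cells were small, 0.17 (0.06 to 0.27), 0.38 (0.25 to 0.52) and 0.33 (0.23 to 0.43), and those to low cells were 0.76, 0.82 and 1.32. At 3000 UMIs a cell, 21.1% of control, 24.2% of young and 24.3% of old intermediate cells had a *Ccne2* UMI, against 20.3%, 18.9% and 22.0% of high, 12.8%, 12.8% and 9.45% of low *Mpo* cells and 6.15%, 9.51% and 7.14% of the cells set aside by the 9 genes.

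Of the same list, 42 genes had a level in all libraries that allowed a comparison with both groups. Of these, 9 lay above both by any size in each library, beside 257 of 4973 genes (5.17%) in all. They were *Ccne1*, *Ccne2*, *Rrm1*, *Rrm2*, *Tyms*, *Slbp*, *E2f8*, *Cenpu* and *Brip1*. By the same measure, 6 of 50 mitosis genes and 4 of 17 genes of cyclins, CDKs and CDK inhibitors lay above both, and the lists may share genes. *Rrm2*, a ribonucleotide reductase subunit, measured 435, 445 and 641 CPM against 362, 356 and 549 CPM in high and 339, 316 and 387 CPM in low cells. *Tyms*, thymidylate synthase, measured 177, 183 and 186 CPM against 144, 164 and 154 CPM in high cells. The MCM helicase genes, which license replication origins in G1, lay between the groups. *Mcm2* measured 78.9, 80.4 and 74.3 CPM against 108, 107 and 90.4 CPM in high and 35.99, 39.7 and 29.8 CPM in low cells. *Ung*, the uracil DNA glycosylase gene, lay far below high cells, at 9.03, 8.29 and 5.73 CPM against 39.7, 32.3 and 27.6 CPM. Against low cells, 23 of the 42 genes were higher by 1.5 times and 0 lower, with medians of 0.69, 0.71 and 0.99 on the log2 scale.

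Mitosis genes had median log2 ratios of 0.56, 0.28 and 0.41 to high and of -0.14, -0.05 and 0.11 to low *Mpo* cells in control, young and old. Of the G2/M and mitosis list, 4 of 50 genes tested were higher than in high cells and 0 lower, and against low cells 0 of 51 passed the limit in either direction. The summed list stood at 7566, 8123 and 9037 CPM, between 5548, 6532 and 6928 CPM in high and 9159, 9235 and 8841 CPM in low cells, save that the old intermediate cells exceeded the old low cells. *Mki67* measured 121, 112 and 118 CPM against 68.7, 82.7 and 81.6 CPM in high cells. Among cyclins, *Ccnd2* and *Ccnd3* went opposite ways. *Ccnd2* measured 16.4, 15.8 and 2.67 CPM against 83.9, 72.7 and 30.0 CPM in high cells, and *Ccnd3* 490, 440 and 543 CPM against 265, 267 and 338 CPM. The kinase genes *Cdk4* and *Cdk6* were lower than in high cells, and the inhibitor gene *Cdkn2d*, which encodes p19, was higher, at 227, 178 and 330.3 CPM against 92.1, 84.995 and 178 CPM.

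**Figure D3:**
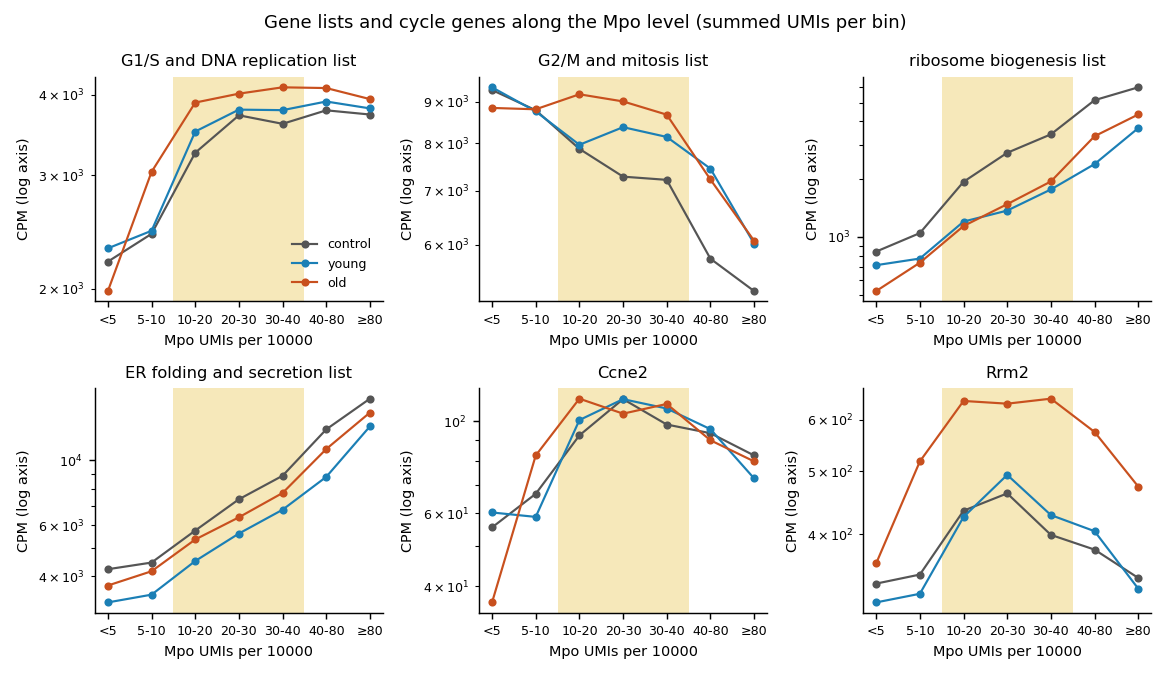
Summed level (CPM, log axis) of 4 gene lists and level of *Ccne2* and *Rrm2* in cells grouped by *Mpo* UMIs per 10000 (horizontal axis; shaded groups are the intermediate cells), 1 line for each library. G1/S genes hold their level through the shaded range and drop below it, mitosis genes are higher at low than at high *Mpo*, and the ribosome biogenesis and ER lists decline together with *Mpo*.

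The machinery for making and folding protein lay low together with the azurophil genes. All 28 ribosome biogenesis genes tested were lower than in high cells, with median log2 ratios of -1.21, -1.26 and -1.47. Against low cells, 20 of 21 were higher. In each library 28 genes of the list reached 10 CPM in high cells. In control, young and old, 25, 22 and 21 did so in intermediate and 17, 16 and 11 in low cells. Genes at this minimum in the higher group alone could not be counted the other way. Over all 30 genes the list summed to 2481, 1367 and 1403 CPM in intermediate cells. High cells had 5525, 3222 and 3596 CPM and low cells 898, 726 and 558 CPM. *Npm1*, which encodes nucleophosmin, a nucleolar protein, measured 486, 251 and 272 CPM. *Srm*, the spermidine synthase gene, measured 69.9, 18.2 and 15.8 CPM against 250.1, 95.9 and 122 CPM in high cells. Of 31 ER folding and secretion genes tested, 26 were lower than in high cells and 0 higher. The chaperone gene *Calr* (calreticulin) measured 292, 184 and 162 CPM against 919, 753 and 638 CPM, and *Pdia4*, a disulphide isomerase gene, 48.3, 30.9 and 32.3 CPM against 167, 132 and 115 CPM. Mitochondrially encoded genes differed less from high cells, with 0 of 12 past the limit, and 10 of 12 were higher than in low cells. Together with *Pdcd4*, *Ctsg*, *Hspe1*, *Mpo* and *Apex1*, *Srm*, *Calr* and *Pdia4* made up the 8 lowest against high cells.

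Of 12 myeloid transcription factor genes tested, 5 were lower than in high cells and 0 higher. At 10 CPM or more were 12, 13 and 12 genes in high and 12, 11 and 8 in intermediate cells (control, young, old). Genes at this minimum in high cells alone could only be counted as lower. The list's median log2 ratios of -0.12, -0.39 and -0.30 lay near those of all genes, and its sum was above that of high cells, at 2131 against 1899.9 CPM in control, 2168 against 2024 CPM in young and 2358 against 2089.98 CPM in old, led by *Cebpe*. *Cebpa*, which drives early granulocyte precursors, measured 14.7, 16.9 and 7.91 CPM against 42.6, 41.02 and 24.9 CPM in high cells, and *Myc* 19.0, 9.62 and 8.18 CPM against 62.7, 39.8 and 29.5 CPM. *Gfi1* and *Myb* were lower as well. *Cebpe*, the gene of the factor needed for specific granules, lay near its level in low cells, with 971, 1121 and 1016 CPM against 680.3, 822 and 746 CPM in high and 1034, 1121 and 935 CPM in low cells.

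Promoters were searched for the azurophil granule and the G1/S lists. The letters searched were TTTGGCGC, TTTCCCGC and TTTCGCGC, to which E2F factors bind, and TTGCNNAA, a core of C/EBP sites, on both strands, in the RefSeq promoters of build GRCm38.p6 from 250 bases before to 50 after the start. E2F letters occurred in 13 of the 33 G1/S genes that had a promoter in the table (39.4%) and in 2.12% of all 27025 genes. C/EBP letters occurred in 2 of 12 azurophil granule genes (16.7%) and in 12.2% of all genes. In the 250 bases before the start, *Mpo*, *Elane*, *Cst7* and *Ms4a3* held no C/EBP letters and *Rrm2* and *Cdt1* no E2F letters. The 3 promoters shown were chosen because they hold the letters: *Fcnb*, on neither list and 1 of the 6 genes above both groups, with C/EBP letters in capitals, and *Mcm5* and *Mcm6*, with E2F letters in capitals. *Fcnb* lies at chr2:28084879-28085128 on the minus strand, *Mcm5* at chr8:75109259-75109508 on the plus strand and *Mcm6* at chr1:128359706-128359955 on the minus strand.
Fcnb: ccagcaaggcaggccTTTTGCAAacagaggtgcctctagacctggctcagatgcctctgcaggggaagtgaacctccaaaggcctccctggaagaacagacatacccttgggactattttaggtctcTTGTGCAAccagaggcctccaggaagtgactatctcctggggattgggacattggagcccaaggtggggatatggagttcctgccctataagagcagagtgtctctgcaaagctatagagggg
Mcm5: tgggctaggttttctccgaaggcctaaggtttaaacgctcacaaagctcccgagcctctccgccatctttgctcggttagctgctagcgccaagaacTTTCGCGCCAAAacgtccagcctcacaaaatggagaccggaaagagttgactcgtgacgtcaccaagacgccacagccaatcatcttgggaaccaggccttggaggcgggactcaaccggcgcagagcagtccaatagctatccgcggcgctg
Mcm6: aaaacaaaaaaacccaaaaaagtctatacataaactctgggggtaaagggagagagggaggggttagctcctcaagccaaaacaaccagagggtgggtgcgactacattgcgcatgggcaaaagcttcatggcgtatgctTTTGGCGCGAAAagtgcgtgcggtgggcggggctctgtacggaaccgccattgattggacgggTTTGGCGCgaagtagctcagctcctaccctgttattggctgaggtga
In *Mcm5* and in the first run of *Mcm6*, 2 matches on opposite strands overlap. A match describes letters and is no evidence of binding in these cells.

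The intermediate cells were not 1 uniform group. Between 10 and 20 *Mpo* UMIs per 10000, cells with fewer than 8000 UMIs in all had higher levels of genes of late neutrophils than deeper cells of the same *Mpo* range. In control, the 229 shallow cells had 4729 CPM of *Ltf* and the 381 deeper cells 1625 CPM, while *Elane* stood at 4911 against 9547 CPM. In young, the 106 shallow cells had 5887 CPM of *Ltf*, 537 CPM of *Mmp8* and 3235 CPM of *Elane*, and the 227 deeper cells 1691, 30.1 and 8827 CPM. *Ccne2* was lower in the shallow cells of both libraries, at 42.0 against 104 CPM in control and 49.2 against 110.4 CPM in young. The median *Mpo* count of these shallow cells was 6 UMIs in both libraries.

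Such shallow cells made up 20.2% of the control and 17.5% of the young intermediate cells but 1.71% of the old ones (21 cells). The spread of *Elane* over single cells also differed. The 10th percentile of intermediate cells lay at 18.5 *Elane* UMIs per 10000 in control, 12.7 in young and 45.0 in old, and the medians were 107, 104 and 92.2. Among cells with at least 8000 UMIs, *Mmp8* in intermediate cells was at 10.2, 26.6 and 25.6 CPM, against 7.11, 22.4 and 25.01 CPM in high cells, and *Ltf* at 1319, 1272 and 1542 CPM. In these deeper cells *Ccne2* measured 107, 111 and 111 CPM, against 92.2, 82.9 and 88.2 CPM in high and 68.4, 71.2 and 46.8 CPM in low cells, and *Fcnb* 2396, 3212 and 1549.9 CPM. Of the intermediate cells, 70.9%, 77.8% and 96.9% in control, young and old had at least 8000 UMIs.

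**Figure D4:**
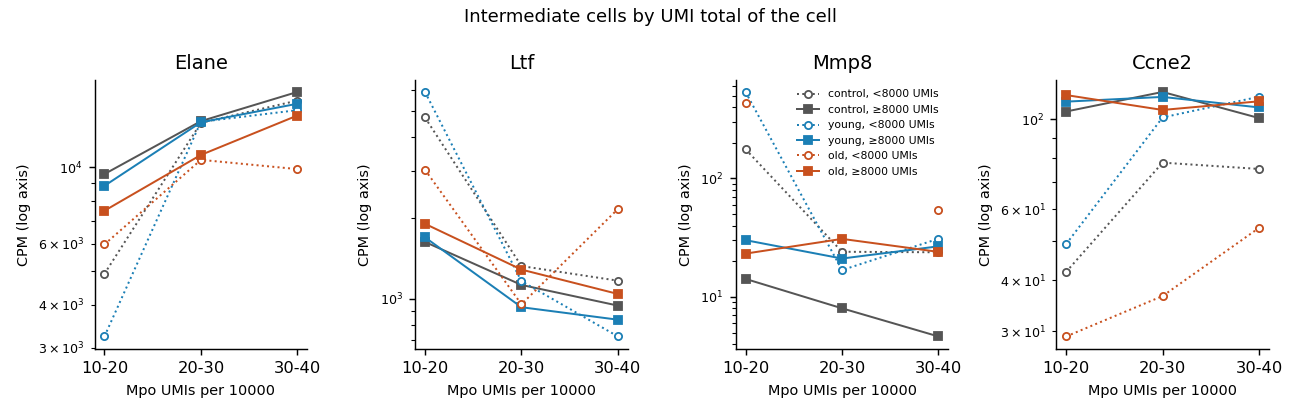
Level (CPM, log axis) of *Elane*, *Ltf*, *Mmp8* and *Ccne2* in intermediate cells by *Mpo* UMIs per 10000 (horizontal axis), for cells with fewer than 8000 UMIs (open circles, dotted lines) and with at least 8000 UMIs (filled squares). At 10 to 20 the shallow cells of all 3 libraries stand apart, with high *Ltf* and *Mmp8* and low *Elane* and *Ccne2*; the old library has 21, 12 and 5 shallow cells, and its 12 at 20 to 30 had no *Mmp8* UMI and are not drawn there.

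Cells with 10 or more UMIs of 9 genes, which mark monocytes, dendritic cells, basophils, B cells and NK cells, were set aside by the rule, so the low level of those lists is set by the choice of cells. What remained was unequal among the libraries. In the young intermediate cells the dendritic cell list (10 genes) summed to 165 CPM against 37.6 CPM in control and 24.7 CPM in old, led by *Bst2* with 110.1, 23.6 and 12.99 CPM in the order young, control, old, a gene that is also on the interferon-stimulated list, with *Siglech*, *Ccr9* and *Xcr1* at or near 0. The erythroid list (10 genes) summed to 131, 36.02 and 5.67 CPM, led by *Hbb-bs*, with *Gata1* and *Epor* near 0, and the basophil and mast cell list (9 genes) to 71.2, 28.2 and 26.6 CPM, led by *Mcpt8*, with *Fcer1a* and *Tpsb2* near 0. The B progenitor list summed to 28.3, 12.7 and 6.82 CPM and the NK and T cell list to 21.02, 1.05 and 3.06 CPM. Their part in the differences between libraries was not tested. The monocyte list (2784, 1789.5 and 1568 CPM) was nearly all *Ly6c2*, a gene that neutrophil precursors share. The macrophage list summed to 97.99, 53.8 and 48.1 CPM, led by *Vcam1*, and the mesenchymal list stayed under 1 CPM in each library.

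The eosinophil granule gene *Prg2* led the genes lower in old than in both other libraries, and most of its UMIs came from 3 cells. It measured 29.0 CPM in control, 109 in young and 0.0546 CPM (1 UMI) in old intermediate cells. In control, 2 intermediate cells held at least 10 UMIs of *Prg2*, *Prg3* and *Epx* together and carried 94.5% of all such UMIs of the group, in young 1 cell carried 93.1%, and no old cell reached this number. The count of genes called in each comparison stayed within 1.5 times without these cells.

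Within the intermediate cells, genes passed 1.5 times in every pair of libraries. In old against young, 374 of 5794 genes (6.45%) were higher and 545 (9.41%) lower, and in old against control 330 of 5697 (5.79%) were higher and 424 (7.44%) lower. Control and young, which share the age of 3 months in their labels, also differed: 329 of 5815 (5.66%) were higher in control and 319 (5.49%) lower. Both comparisons of old use the same old library and are no independent evidence. Condition, mice and library cannot be told apart here.

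*Mpo* itself was alike. *Mpo* measured 2149.8 CPM in control, 2126 in young and 2159 in old intermediate cells, which the limits on *Mpo* largely fix. *Ccne2*, *Prom1* and *Mki67* differed by little, with log2 ratios of old to young of 0.06 (-0.06 to 0.18), 0.12 (-0.04 to 0.29) and 0.07 (-0.05 to 0.20). *Ctsg* was higher in old at the same *Mpo*, by 2.52 times against young and 1.85 times against control, and *Camp* was lower, at 0.541 and 0.668 times. *Fcnb* was likewise lowest in old, at 0.505 times young and 0.680 times control, while control stood at 0.742 times young.

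The 8 genes leading in old over both other libraries included *Ifitm1*, of the interferon-induced transmembrane family. *Ifitm1* measured 167 CPM in old against 6.77 CPM in control and 13.8 CPM in young. *BC100530* and *Stfa1*, of the stefin family of cysteine protease inhibitors, measured 107 and 111 CPM against 9.83 and 26.1 CPM in control and 6.66 and 31.8 CPM in young. *Wfdc17* (121 against 7.82 and 13.3 CPM), the linker histone gene *H1f0* (107 against 18.6 and 29.6 CPM) and *Cystm1* (61.3 against 12.0 and 7.25 CPM) showed the same order of old above both, as did *Lipg*, a lipase gene, and *Ifitm6*. The stefin genes are close copies of each other, so their values are uncertain. *Ifitm1*, *BC100530*, *Stfa1*, *Wfdc17*, *H1f0* and *Cystm1* reached the minimum level for naming in old alone, so they passed it only where they were highest. *BC100530* was under 10 CPM in control and young, *Ifitm1* and *Wfdc17* in control and *Cystm1* in young. The size of these ratios therefore rests on low values. All 8 genes were also above control and young in high and in low *Mpo* cells; for *Ifitm1* the log2 ratios of old to young were 3.60 in intermediate, 3.48 in high and 3.66 in low cells.

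The 8 genes named for lower values in old than in both, among genes of at least 50 CPM in any of the 3 libraries, were *Prg2*, *Hbb-bs*, *Isg15*, *Clec4b2*, *Stk39*, *Ifi27l2a*, *Cxcr4* and *Fam132a*. *Prg2*, *Hbb-bs*, *Isg15*, *Clec4b2*, *Stk39*, *Ifi27l2a* and *Cxcr4* reached 50 CPM in young alone, so they passed this limit only where they were highest. *Isg15* (8.22 and 1.86 CPM) and *Ifi27l2a* (7.66 and 3.06 CPM) were under 10 CPM in control and old. Their place among the 8 rests on the ratio of old to control, the nearer library, and so on these low values. *Cxcr4*, the receptor that holds neutrophils in the marrow, measured 15.6 CPM in old against 34.9 CPM in control and 50.03 CPM in young. *Stk39*, a kinase gene, measured 16.1 against 47.9 and 56.8 CPM, and the lectin gene *Clec4b2* 12.3 against 41.5 and 54.9 CPM. The study chose *Fdps*, *Tspo* and *Anxa1* because they were higher in old than in young cells, by cell number those of the same libraries. Their order between old and young below therefore follows from that choice and is no independent evidence. Among the genes that the study names for CD133+ cells, *Fdps*, an enzyme of the mevalonate pathway, measured 524 CPM in old, 269 in control and 157 in young. *Tspo*, a mitochondrial outer membrane protein gene, measured 1805, 1144 and 784 CPM in that order, and *Anxa1*, the annexin A1 gene, 4959, 2165 and 2155 CPM. *Mmp9* measured 28.3, 29.3 and 49.1 CPM, *Ceacam1* 104, 123 and 133 CPM, and *Cdkn1a* and *Ccnd1* were under 10 CPM in all 3.

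Genes of sterol synthesis summed to 950 CPM in old, 577 CPM in control and 394 CPM in young over all 24 genes of the list. The sum was led by *Fdps*, at 524, 269 and 157 CPM in that order. The study chose this gene for its higher level in old cells. High *Mpo* cells had 1056, 717 and 501 CPM of the list and low *Mpo* cells 698, 388 and 271 CPM, in the same order of libraries. Of the 24, 22 had a higher value in old than in young and 20 than in control, whatever their level. Of all genes tested, 3138 of 5794 had a higher value in old than in young and 2850 of 5697 than in control. The minimum of 10 CPM was reached by 19 genes in old, 13 in control and 9 in young. The genes that reached it in old alone could only be counted as higher, so the number past 1.5 times is not given for this list. *Msmo1* measured 45.6 CPM in old, 27.5 in control and 14.1 in young, and *Idi1* 32.5, 22.0 and 14.7 CPM. *Sqle*, squalene epoxidase, measured 16.3, 9.51 and 2.37 CPM. Control stood between old and young for these 3 genes.

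Interferon-stimulated genes summed to 2783 CPM in young, 851 CPM in control and 1984 CPM in old over all 29 genes of the list. High *Mpo* cells had 2457, 626 and 1272 CPM and low *Mpo* cells 4520, 1447 and 2401 CPM, in the same order of libraries. Of the 29, all 29 had a lower value in control than in young and 28 a lower value in old than in young, whatever their level. Of all genes tested, 3015 of 5815 had a higher value in control than in young and 3138 of 5794 in old than in young. The minimum of 10 CPM was reached by 23 genes in young and by 8 in control and 8 in old. The other 15 reached it in young alone and could only be counted as lower elsewhere, so the number past 1.5 times is not given for the comparisons with young. The exception in old was *Ifitm3*, which led the sum in each library, with 1603 CPM in old, 1014 in young and 531 in control. *Rtp4* measured 130.4 CPM in young against 1.77 CPM in control and 1.31 CPM in old, *Ifi27l2a* 299.9 against 7.66 and 3.06 CPM, and *Oas1a* 87.2 against 11.04 and 13.4 CPM. Between old and control, 8 genes of the list could be tested, of which 2 were higher and 1 lower in old.

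Ribosome biogenesis genes set the control library apart. Of 22 genes at 10 CPM or more in both libraries, 20 were higher in control than in young and 0 lower. Of 21 such genes, 16 were lower in old than in control and 0 higher. Another 3 genes reached 10 CPM in control but not in young, and 4 in control but not in old. These could only be counted as higher in control. Over all 25 genes tested, the median log2 ratio of control to young was 0.86. Between old and young, 0 of 22 tested passed the limit in either direction, with a median of 0.05. *Srm* was 3.84 times and the kinase gene *Pim1* 3.46 times higher in control than in young, and *Lipg* and *Lilr4b* completed the 4 highest. The 4 lowest in control were *Rtp4*, *Ifi27l2a*, *Isg15* and *Oas1a*. The gap in the list sum was present at each *Mpo* level of the intermediate range, with 1935, 2740 and 3417 CPM in control against 1201, 1371 and 1765 CPM in young at 10 to 20, 20 to 30 and 30 to 40 *Mpo* UMIs per 10000. Of the ER folding genes, 8 of 30 were higher in control than in young and 0 lower. Of all genes at the minimum in either library, 5.66% were higher and 5.49% lower in control than in young, and 7.44% were lower in old than in control.

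**Figure D5:**
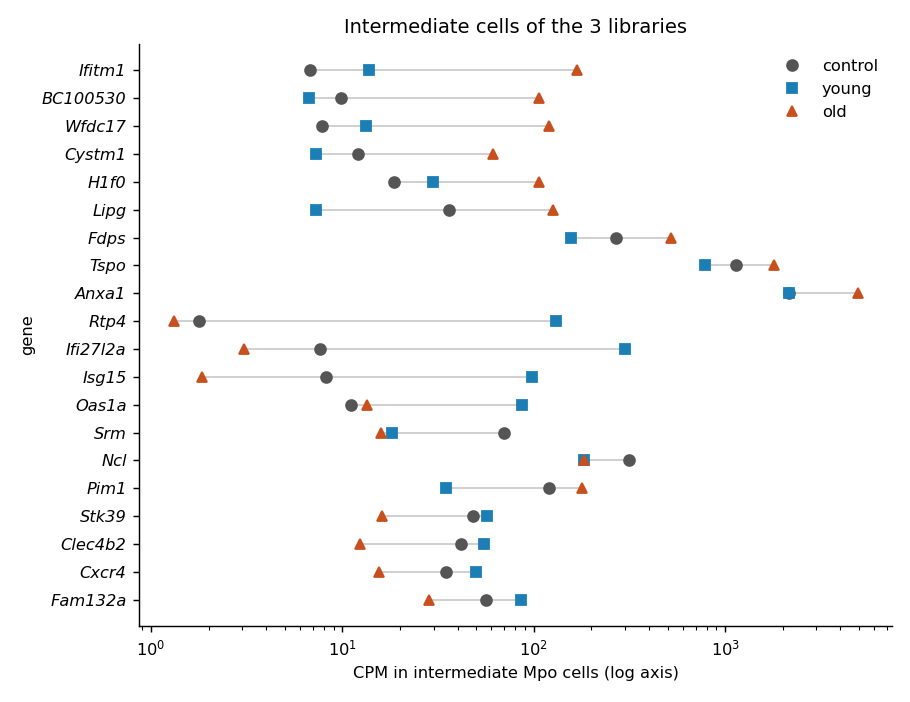
Level (CPM, log axis) of 20 genes in the intermediate *Mpo* cells of the control (circles), young (squares) and old (triangles) library, 1 summed value each, joined by a grey line. Old is highest for the upper genes, from *Ifitm1* to *Anxa1*, with control between old and young for *Lipg*, *Fdps* and *Tspo*. Young stands apart for *Rtp4* to *Oas1a*, control for *Srm* and *Ncl*, and old is lowest for *Stk39* to *Fam132a*.

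For the other lists, the counts below are over genes that reached the minimum of 10 CPM in both libraries of a pair, unless stated. Genes that reached it in 1 library alone could not be counted the other way. No share over all genes was computed on this basis. With the minimum in either library, 6.45% of all genes were higher and 9.41% lower in old than in young. The shares were 5.79% and 7.44% in old against control and 5.66% and 5.49% in control against young. Counts near these shares are no trait of a list. Gelatinase granule and maturation genes had 4 higher and 4 lower of 14 in old against young. Against control they had 3 higher and 1 lower of 13 in old. In control against young, 2 were higher and 4 lower of 13. In old alone, 2 more genes reached the minimum against young and 3 against control. Of the genes lower in old than in young, *Mmp8* and *Ly6g* were within 1.5 times in cells of at least 8000 UMIs, where *Mmp8* stood at 25.6 CPM in old, 26.6 in young and 10.2 in control and *Ly6g* at 31.8, 43.1 and 27.8 CPM. Specific granule genes had 3 higher and 4 lower of 17 in old against young, 2 higher and 0 lower against control, and 0 higher and 2 lower in control against young. The G1/S list had 1 gene higher and 0 lower of 42 in old against young, and 3 higher and 0 lower of 42 against control. In control against young, 0 of 42 passed in either direction. Of 12 mitochondrially encoded genes, 6 were lower in old than in control and 0 higher, and between old and young 0 passed the limit. Of 50 mitosis genes at the minimum in both libraries, 3 were higher and 1 lower in old than in young. Against control, 5 of 50 were higher in old and 0 lower. With genes at the minimum in either library, 4 of 53 were higher than in young and 6 of 52 than in control. Of all genes tested that way, 6.45% and 5.79% were higher. Of 8 transcription factor genes at the minimum in both libraries, 1 was lower in old than in young and 0 lower than in control. Another 3 genes reached it in young alone and 4 in control alone, and these could only be counted as lower in old. *Cebpa* was among them in both comparisons, and *Myc* in that with control. Against young, *Myc* was under 10 CPM in both libraries and not tested. Of 14 receptor and adhesion genes at the minimum in both libraries, 2 were higher and 5 lower in old than in young. A further 2 reached it in young alone. The chemokine receptor gene *Cxcr2* measured 41.1 CPM in old, 22.4 in control and 20.4 in young.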

How the data were processed

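The authors aligned the reads of 10x Chromium Single Cell 3′ v2 libraries with STAR and Cell Ranger 2.1.0 against mm10, as the submitters' processing notes name them, and deposited 1 matrix of whole UMI counts for each library, without normalization. Cell barcodes carry suffixes as in an aggregated run, and whether reads were subsampled is not stated. Of the 27998 gene identifiers, 27645 were found in GENCODE M21. The libraries share 125 (control and young), 161 (control and old) and 120 (young and old) barcode sequences.

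The filters and limits on *Mpo* were applied to the counts. UMIs were summed over the cells of a group and given per 1000000 UMIs (CPM), with exact Poisson, Clopper-Pearson or conditional binomial 95% intervals. Each condition is 1 library, so no test was made. Genes with at least 10 CPM in either group were called at 1.5 times. The members, gene lists and limits were chosen with earlier results of these data known. *Cebpd*, *Ighm* and *Trbc2* of the lists were not analysed here. Named are the markers and genes of the study, the 8 highest and 8 lowest of each comparison with at least 50 CPM (4 and 4 between control and young) and members of the lists. The 8-gene rule against both other groups used the higher of them, with a limit of 1.2 times. Scrublet in Scanpy 1.11.5 called 2 control and 2 young cells, which is too few to have worked, and 307 old cells, so doublets were not removed and an alternative left out the top 5% of scores in each library. Median scores in control, young and old were 0.0569, 0.0579 and 0.0604 in intermediate cells. They were 0.0470, 0.0439 and 0.0469 in high and 0.0553, 0.0495 and 0.0469 in low *Mpo* cells. In old, 27 of 1226 intermediate, 7 of 1066 high and 146 of 7175 low cells were called. The part of doublets in the intermediate group was not tested. Shares were thinned to 3000 UMIs a cell. The rule for a pair of libraries was checked, for old against young, on data simulated with counting error alone. It recovered nearly all of the most strongly changed genes. The rules over all libraries and against both other groups were not checked this way. Python 3.11.15, NumPy 2.4.6 and SciPy 1.17.1 were used.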

Additional observations from a re-analysis of the deposited data

Results flagged for a closer look

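Cells that carried at least 10 UMIs of the 9 genes of other blood cells were left out of every group above, although some had *Mpo* in the intermediate range. In the young library these were 30 cells, or 0.399% of the kept cells, against 9 cells (0.0920%) in control and 7 cells (0.0734%) in old. They were flagged because the share in young lay above that in control in cells outside the comparisons. The cells left out numbered 610 in young, 65 in control and 70 in old in all.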

How the results depend on the processing

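No paired analysis was possible because each condition is 1 library and the labels give no replicate numbers. The 14 shares and counts were recomputed under up to 10 alternatives, of which leaving out the cells with *Prg2*, *Prg3* and *Epx* was chosen after seeing the data; 104 of 123 recomputed values stayed within 1.5 times (counts) or within their interval (shares). For control, young and old, the share of intermediate cells was 5.10%, 3.42% and 6.45% with limits of 15 to 30 *Mpo* UMIs per 10000 and 12.9%, 9.83% and 14.1% among cells of at least 8000 UMIs, and for young it was 7.26% with fewer than 3 UMIs of the 9 genes. The order young, control, old was the same in these settings. The number of genes above both other groups was 10 with UMI totals trimmed over all libraries, 12 at 15 to 30 *Mpo* UMIs, 2 (*Fcnb* and *Ccne1*) in cells of at least 8000 UMIs and 10 with mean CPM of single cells; *Fcnb* was among them in all of these, and *Ccne1* in all but the centred ratios. With centred ratios 386 genes were higher and 380 lower than in high cells, and 261 higher and 259 lower than in low cells. The log2 ratio to the higher of both groups then turned to -0.0202 for *Hist1h1b*, -0.13 for *Grn*, -0.11 for *Tagln2*, -0.11 for *Hvcn1* and -0.11 for *Sipa1*, since centring lowers every ratio to low cells. With a minimum of 20 CPM fewer genes were tested, and 219 were higher and 226 lower in old than in control, 270 lower in old than in young and 169 lower in control than in young. Of 536 recomputed values of named genes 493 stayed within 20% of their size, as did 290 of 334 list medians, none of which turned. The young intermediate cells had the fewest UMIs in sum, 6755608, from 607 cells.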
